A study of Mus musculus with 2 samples.

Results

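The eicosanoid synthesis enzymes described here are 10 genes chosen by name: Pla2g4a, Alox15, Alox5, Alox5ap, Ltc4s, Lta4h, Ptgs1, Ptgs2, Ptges and Hpgds. They were found through their NCBI gene numbers among 15623 genes listed in 1 or both of the tables, and all 10 members were listed in both. RNA was sequenced from peritoneal macrophages of wild-type C57BL/6 mice, elicited with thioglycolate, enriched by adherence and starved in medium with little serum. One library came from nontreated (NT) cells and the other from cells given mouse IL-4 for 6 h, the Th2 cytokine that drives M2 polarization. Both groups carried the same genotype and strain. The mice were 6 to 8 weeks old according to the methods of the study. The labels do not give the number of mice behind a library, and they name bone marrow as the tissue in one field. With 1 library in each of the 2 groups there was no replicate, so no difference below was set against a spread between animals.

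Eicosanoids are short-lived lipid mediators made from arachidonic acid, which cytosolic phospholipase A2 cuts from membrane phospholipids. Lipoxygenases turn the freed acid into leukotrienes and hydroxy acids, whereas cyclooxygenases turn it into prostaglandin H2, the precursor that terminal synthases convert into prostaglandins, prostacyclin or thromboxane. Macrophages are a classical source of both classes, and mouse 12/15-lipoxygenase (Alox15) is a well-known IL-4-responsive enzyme of these cells.

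Of the 10 members, 3 were called, and none of the 4 genes of the leukotriene branch was among them. Ptgs1 (COX-1) was 4.14-fold higher and Alox15 was 6.43-fold higher in the IL-4 library, and Hpgds, the hematopoietic prostaglandin D synthase, was 2.30-fold lower. The other 7 members were not called. The background is that 4.07% of the 15593 genes tested were called higher and 6.28% lower, or 10.4% in either direction, against 2 and 1 of the 10 members. Calls required a log2 ratio of IL-4 over NT beyond 0.75 in either direction, an exact binomial p-value of no more than 0.05 and, after Benjamini-Hochberg (BH) adjustment, a value of no more than 0.5. What is tested here is one set of reads against another, and not the effect of IL-4 across animals. All 3 calls were lost when a biological coefficient of variation of 0.4 between samples was assumed in the edgeR exact test. At 0.2 they were kept, that of Hpgds only under the BH limit of 0.5 and not under 0.05. In bulk RNA, fewer cells of a type and less RNA per cell cannot be told apart.

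Sequence before the start site is shown for Ptgs1, the called member with the most reads among those that rose, and for Ptges and Tbxas1 (thromboxane A synthase, described below), which hold a STAT6-type motif. The windows come from the RefSeq promoter table (GRCm38.p6) and span up to 250 bases before a start site. Each is written 5′ to 3′ on the strand of its gene, and capitals mark the motif, TTC and GAA separated by 4 bases, which reads the same on both strands. They lie at chr2:36230176-36230425 on the plus strand (Ptgs1), chr2:30903298-30903547 on the minus strand (Ptges) and chr6:38918736-38918979 on the plus strand (Tbxas1). All 3 fall inside the widest annotated span of the gene, so other transcripts start further upstream. No exon of the gene itself lies in the parts shown in GENCODE M21. An exon of the antisense gene Gm42962 overlaps the Tbxas1 window. In the RefSeq annotation the long noncoding RNA gene Gm52550 spans the whole Ptges window, with its motif. The window of Hpgds, which overlaps its first exon by 178 bases, is not shown.
Ptgs1: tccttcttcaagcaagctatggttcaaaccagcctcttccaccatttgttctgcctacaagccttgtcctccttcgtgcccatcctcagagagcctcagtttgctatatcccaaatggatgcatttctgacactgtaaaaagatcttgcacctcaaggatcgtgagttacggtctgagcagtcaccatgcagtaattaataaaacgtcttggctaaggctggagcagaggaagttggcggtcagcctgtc
Ptges: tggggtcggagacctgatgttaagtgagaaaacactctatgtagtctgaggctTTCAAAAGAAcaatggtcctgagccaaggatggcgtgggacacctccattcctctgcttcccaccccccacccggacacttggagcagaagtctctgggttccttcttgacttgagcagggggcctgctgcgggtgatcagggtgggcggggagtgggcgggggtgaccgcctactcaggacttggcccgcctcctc
Tbxas1: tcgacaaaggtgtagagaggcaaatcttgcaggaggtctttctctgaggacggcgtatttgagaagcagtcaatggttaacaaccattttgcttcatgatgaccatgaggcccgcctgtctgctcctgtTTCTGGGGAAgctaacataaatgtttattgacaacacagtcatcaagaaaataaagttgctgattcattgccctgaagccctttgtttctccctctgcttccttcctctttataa

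Of the members, 8 had a promoter entry, and Alox15 and Alox5ap had none. The motif with 4 bases between the half-sites was present in Ptges alone among these 8, beginning 197 bases before its start site, and Ptges was not called. It was present in 5.85% of all 32851 promoter windows of the same length. With 3 bases between the half-sites, the motif was in no window of these members and in 7.02% of all windows. Of the other pathway genes described below, only the 8 that were called were searched. Of these, 7 had a promoter entry and 2 held the form with 4 bases, Tbxas1, 121 bases before its start site, and Cysltr2. A match is only a run of letters in this window.

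The level of each member per transcript length was compared as FPKM (fragments relative to transcript length and library size). In the NT library Alox5ap was the most abundant member at 107.65 FPKM, followed by Lta4h at 64.29, Hpgds at 45.51 and Ptgs1 at 8.63. Pla2g4a followed at 4.21 FPKM, Ltc4s at 3.04, Ptges at 1.17, Alox5 at 0.64, Ptgs2 at 0.42 and Alox15 at 0.15. The counting intervals of neighbours in this order overlapped for Pla2g4a and Ltc4s and for each pair from Ptges down to Alox15, so those places are not resolved. In the IL-4 library Ptgs1 (35.76 FPKM) stood above Hpgds (19.77 FPKM), the reverse of the NT library, and Alox15 (1.06 FPKM) had moved from last place to the seventh. Intervals of Alox5ap and Lta4h overlapped there, as did those of each pair from Alox15 down to Ptges, Ptgs2 and Alox5. Ptgs1 made up 3.66% of the summed FPKM of the 10 genes in NT cells and 16.8% after IL-4, whereas the share of Hpgds went from 19.3% to 9.28%.

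**Figure D1:**
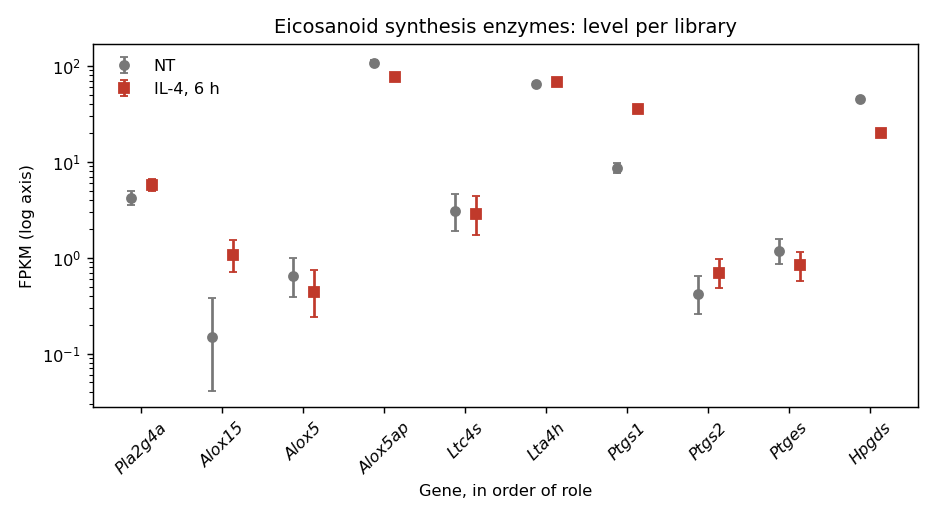
FPKM (log axis) of the 10 members in the NT (grey circles) and IL-4 (red squares) libraries, 1 library each, with exact Poisson 95% intervals of the count as bars (counting error only). Ptgs1 went from 8.63 to 35.76 FPKM and Hpgds from 45.51 to 19.77 FPKM, while Lta4h stayed near 64.29 to 68.78 FPKM.

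To look first at the release of substrate, Pla2g4a was examined, which encodes cytosolic phospholipase A2 alpha (chromosome 1, 149829618 to 149961290, GRCm38). Expected counts of Pla2g4a were 134 without IL-4 and 188 with it, which is a log2 ratio of 0.46 (95% interval of counting error, 0.13 to 0.79). The interval lay above 0, but the ratio did not reach the threshold and Pla2g4a was not called.

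Alox15 (chromosome 11, 70344147 to 70390538) encodes 12/15-lipoxygenase, which adds oxygen to arachidonate and linoleate and can also act on lipids in membranes. It had 4 expected counts in NT cells and 29 after IL-4. On the log2 scale the ratio was 2.68 (interval 1.32 to 4.80), and the exact test gave a BH-adjusted p of 8.02e-05. Of the tested genes, 1.54% had a larger ratio. They include nearly empty genes, such as Pla2g5 and Ggt5 at 2.78 from 0 counts in NT cells and 3 after IL-4. How rare such a rise was among genes with as many reads as Alox15 was not tested. Even after the rise the level of Alox15 was low, at 1.06 FPKM, and 29.8% of the genes listed in the IL-4 library had a lower FPKM. The size of the change rested on the 4 NT reads, as the width of the interval shows. With 1 added to FPKM, the log2 ratio was 0.84, which still passed the threshold, and Alox15 was called at the p-value of the main test. The 4 tested genes nearest to Alox15 in the pair of log2 levels over the 2 libraries were Sprr1a (5 and 28 expected counts in NT and IL-4), Rapsn (3 and 31), Lipg (3 and 27) and Spint1 (5 and 36), at distances from 0.29 to 0.42 log2 units.

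Alox15 is known as a gene of resident large peritoneal macrophages and of eosinophils, so their markers were read in the same libraries. Of 7 markers of resident large peritoneal macrophages, all were listed. They summed to 36.9 CPM (counts over the library total, on a common scale) in NT cells and 44.3 CPM after IL-4, and 1 of the 7, Selp (25 and 72 counts), was called higher. Gata6, the defining transcription factor of those cells, had 54 and 77 counts and was not called. Of 6 eosinophil markers, Epx, Prg3 and Ccr3 were listed in neither library, and the list summed to 6.50 CPM in NT cells and 3.84 CPM after IL-4. Siglecf, on this list, was called lower (53 and 27 counts). The part of resident macrophages in the Alox15 result was not tested.

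The leukotriene branch begins with Alox5 (chromosome 6, 116410071 to 116461178), the 5-lipoxygenase. Alox5 was scarce, with 20 expected counts in NT cells and 14 after IL-4 (log2 ratio -0.53, interval -1.64 to 0.52). A change could not be resolved at this depth. Alox5ap (chromosome 5, 149265004 to 149288153) encodes FLAP, the membrane protein that presents arachidonate to 5-lipoxygenase. It had 1197 counts in NT cells and 873 after IL-4 (log2 ratio -0.48, interval -0.61 to -0.36). The whole interval lay below 0 and inside the threshold, and Alox5ap was not called. FLAP transcripts were about 168-fold more abundant than those of Alox5 in the NT library and about 175-fold more in the IL-4 library, in FPKM. These folds rest on the few Alox5 reads. The counting interval of Alox5 was 0.39 to 0.99 FPKM in the NT library and 0.24 to 0.74 FPKM in the IL-4 library.

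Lta4h and Ltc4s encode the enzymes that split the leukotriene pathway, the hydrolase that makes leukotriene B4 and the synthase that joins leukotriene A4 to glutathione. Lta4h (chromosome 10, 93453396 to 93484896) had 1464 expected counts in NT cells and 1598 after IL-4. On the log2 scale the ratio was 0.10 (interval from just under 0 to 0.20), so a change as large as the threshold lay outside the counting error. Ltc4s (chromosome 11, 50236461 to 50238532) had 22 and 19 counts (log2 ratio -0.23, interval -1.21 to 0.71). Its weighted transcript length was 680 bases in the NT table and 622 bases in the IL-4 table, where the length is weighted over 4 transcripts. Antisense genes share part of the sequence, at 19.5% of the 31-base words of Ltc4s (Gm26542) and 9.45% of those of Alox5ap (Gm19719), while Ptgs1 shares 3.11% with Gm43621, and the sources used here do not say whether counting used strand, so reads from these pairs cannot be told apart. None of the 4 genes of this branch was called, where 10.4% of all tested genes were called in either direction. Their median log2 ratio was -0.36, against -0.03 for all tested genes, but only the interval of Alox5ap lay wholly below 0.

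The cyclooxygenases, which make prostaglandin H2, differed from each other. Ptgs1 (chromosome 2, 36216742 to 36258593), which encodes COX-1 and is known as the constitutive form, rose from 276 expected counts to 1166. On the log2 scale the ratio was 2.05 (interval 1.86 to 2.25), and 2.92% of the tested genes had a larger ratio. That share takes in nearly empty genes, and rarity among genes with as many reads as Ptgs1 was not tested. Ptgs2 (chromosome 1, 150100031 to 150108234), which encodes the inducible COX-2, had 21 counts in NT cells and 35 after IL-4 (log2 ratio 0.70, interval -0.11 to 1.56). The intervals of Ptgs1 and Ptgs2 did not overlap. In FPKM, Ptgs1 stood 20.5-fold above Ptgs2 in the NT library and 51.8-fold above it in the IL-4 library. The counting interval of Ptgs2 was 0.26 to 0.64 FPKM in the NT library and 0.48 to 0.96 FPKM in the IL-4 library. Ptgs2 was not called (BH-adjusted p of 0.221 in the exact binomial test), and a change of Ptgs2 as large as 1.56 on the log2 scale lay within its counting error.

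Among the terminal synthases, Hpgds fell. Hpgds (chromosome 6, 65117293 to 65144981) makes prostaglandin D2 and had 1667.87 expected counts in NT cells and 739.22 after IL-4. On the log2 scale the ratio was -1.20 (interval -1.33 to -1.08), and the whole interval lay beyond the threshold. Of all tested genes, 9.98% had a lower ratio. That share takes in nearly empty genes, such as Tbxa2r and Ptgdr at -1.61 from 1 count in NT cells and 0 after IL-4. How rare such a fall was among genes with as many reads as Hpgds was not tested. Ptges (chromosome 2, 30889471 to 30931020), the inducible microsomal synthase of prostaglandin E2, was scarce, with 47.54 and 34.44 counts. The log2 ratio of Ptges was -0.49 with an interval from -1.20 to 0.14, and it was not called. In FPKM, Hpgds stood 38.9-fold above Ptges in the NT library and 23.8-fold above it in the IL-4 library, although the counting intervals of their ratios overlapped. The expected counts of Hpgds and Ptges were not whole, so RSEM had divided some of their reads with other transcripts, and how many is not known from the tables. Transcripts of 1264 other genes held 31-base words of Hpgds on either strand, each at most 0.66% of its words, and those of 10 genes held words of Ptges.

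Mast cells are another known source of Hpgds and Ltc4s, and their markers were therefore read beside these genes. The 8 mast cell markers summed to 6.52 CPM in NT cells and 5.87 CPM after IL-4. Fcer1a was listed in neither library, Cpa3 had 19 and 15 counts and Tpsb2 had 30 and 19. Of the 8, Hdc (3 and 15 counts) was called higher and none was called lower. Platelets carry much Ptgs1 and thromboxane synthase. Of 5 platelet markers, 4 were listed in neither library and the fifth, Itga2b, had 5 and 3 counts. The part of mast cells and platelets in the results for Hpgds, Ltc4s and Ptgs1 was not tested.

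**Figure D2:**
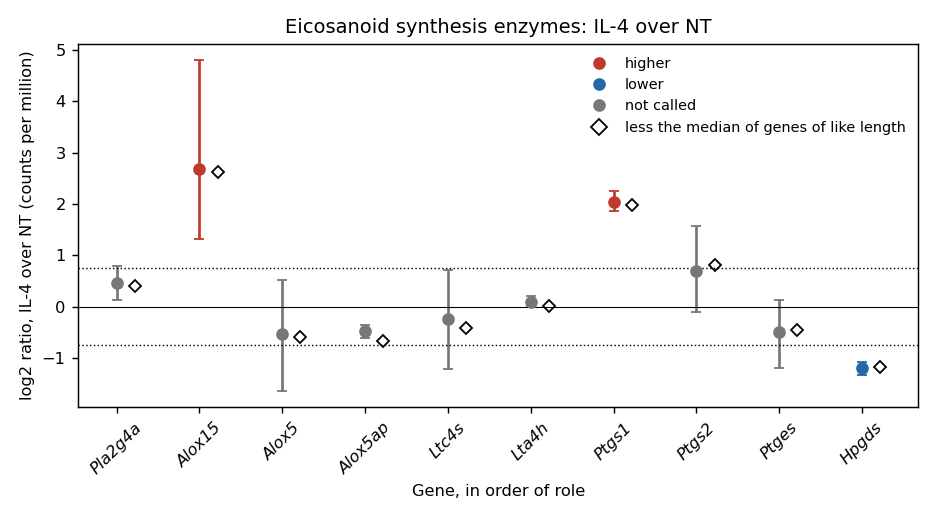
Log2 ratio of IL-4 over NT for the 10 members (circles, coloured by call) with exact Clopper-Pearson 95% intervals of counting error. Dotted lines mark 0.75 in either direction and diamonds give the ratio after the length trend was subtracted. Alox15 (2.68) and Ptgs1 (2.05) lie above the upper line with their whole intervals, and Hpgds (-1.20) below the lower one.

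Across these 2 libraries the ratio of a gene fell with the length of its transcripts (Spearman correlation -0.45 across 8463 genes with at least 200 reads, which share the libraries and are not independent). The median ratio of genes of similar length lay between -0.12 (Ptgs2) and 0.20 (Alox5ap) for the members. With it subtracted, the log2 ratio was 2.62 for Alox15, 1.99 for Ptgs1 and -1.18 for Hpgds, and the same 3 members were called. Alox5ap came to -0.68 and Ptgs2 to 0.81, neither of them called. These calls kept the p-values of the main test, which were not recomputed for the trend. Less the trend, the counting interval of Ptgs2 ran from 0.005 to 1.68. That of Alox5ap ran from -0.81 to -0.55 and so took in the threshold. The lack of a call is thus not settled for either gene.

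**Figure D3:**
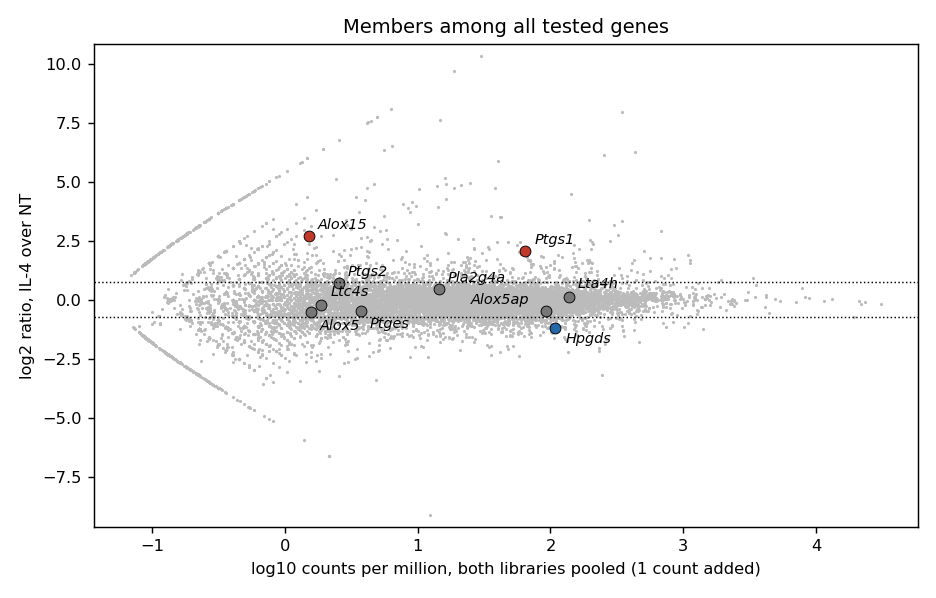
Log2 ratio of IL-4 over NT against abundance (log10 of pooled CPM) for the 15593 tested genes (grey points), with the 10 members named and coloured red (called higher), blue (called lower) or dark grey (not called). Ptgs1 and Hpgds lie outside the band between the dotted lines at 0.75 at high abundance, whereas Alox15 lies among the scarce genes on the left.

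To place the members in their pathway, 86 other genes of eicosanoid metabolism and response were examined in 9 lists. Of these, 77 had at least 1 read after rounding and 9 were listed in neither library. In total 7 of the 77 were called higher and 1 lower, where 4.07% of all tested genes were called higher and 6.28% lower. The median log2 ratio was -0.02, close to that of all tested genes (-0.03). The 7 higher genes were 2 prostanoid synthases, 2 prostanoid receptors, 2 leukotriene receptors and 1 gene of substrate release.

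Of the 8 other prostanoid synthases, 2 were called higher and none lower, against 4.07% and 6.28% of all tested genes. Their median log2 ratio was 0.18. Tbxas1 (chromosome 6, 38864159 to 39084590), which converts prostaglandin H2 into thromboxane A2, rose from 372 to 1196 expected counts (log2 ratio 1.66, interval 1.49 to 1.83). Ptgis (chromosome 2, 167203194 to 167252150), the prostacyclin synthase, rose from 82 to 191 counts (log2 ratio 1.19, interval 0.81 to 1.58). In FPKM, Tbxas1 stood at 0.372 times the level of Hpgds without IL-4 and at 2.70 times with it. The counting intervals of the ratios of Tbxas1, Ptgis and Hpgds showed no overlap between Hpgds and either of the other two. The remaining prostaglandin E synthases, Ptges2 (149 and 218 counts) and Ptges3 (1006 and 1296 counts), had log2 ratios of 0.52 and 0.34 and were not called.

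Of the 9 prostanoid receptors, 2 were called higher and none lower, against 4.07% and 6.28% of all tested genes. The median of the list was -0.41, but only 4 of its genes reached 50 counts in either library. The median counts in nearly empty genes such as Tbxa2r and Ptgdr, each at -1.61 from 1 count in NT cells and 0 after IL-4. Ptgir (chromosome 7, 16906490 to 16910905), the prostacyclin receptor, rose from 844 to 2592 expected counts (log2 ratio 1.59, interval 1.48 to 1.70). Ptger2 (chromosome 14, 44988111 to 45003820), the EP2 receptor of prostaglandin E2, rose from 70 to 239 counts (log2 ratio 1.74, interval 1.35 to 2.15). Both receptors signal through cyclic AMP. The other receptors of prostaglandin E2 with enough reads were not called, with 647 and 442 counts for Ptger1 and 120 and 92 counts for Ptger4. Receptors of thromboxane (Tbxa2r) and prostaglandin D2 (Ptgdr) had at most 1 count in either library, and Ptgdr2 had 16 and 22.

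Of the 8 leukotriene, lipoxin and resolvin receptors, 2 were called higher and none lower, against 4.07% and 6.28% of all tested genes. The median log2 ratio was 0.61, although only 2 genes of the list reached 50 counts in either library. Both called genes had few reads and are named here after their values were seen. Ltb4r1, the high-affinity receptor of leukotriene B4, had 16 counts after IL-4 and was absent from the NT table. Set against a floor of 3 counts in NT cells, its level was 5.23-fold higher (2.39 on the log2 scale), with no counting error taken into account. The counting interval of Ltb4r1 on the log2 scale began lower, at 1.92, and had no upper bound. Cysltr2, a receptor of cysteinyl leukotrienes, had 7 and 25 counts (log2 ratio 1.74, interval 0.56 to 3.26). Cmklr1, the receptor of this list with the highest FPKM, had 670.75 and 1043.49 counts (log2 ratio 0.61), short of a call. Cysltr1 was not called either, with 78 and 70 counts.

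Of the 18 other genes of substrate release, 14 were tested. Of these, 1 was called higher and 1 lower, against 4.07% and 6.28% of all tested genes. Pla2g15 (chromosome 8, 106150354 to 106164718), the lysosomal phospholipase A2, rose from 2185 to 4568 expected counts (log2 ratio 1.04, interval 0.96 to 1.11). Mgll (chromosome 6, 88724412 to 88828360), the monoacylglycerol lipase that can free arachidonate from 2-arachidonoylglycerol, fell from 949 to 472 counts (log2 ratio -1.03, interval -1.20 to -0.87). The median of the 14 was 0.04. None of the 12 genes of arachidonate synthesis and storage was called, where 10.4% of all tested genes were called in either direction. At that share a list this short can hold no call. The median of the 12 genes was -0.13. The most abundant of these per length was Acsl5, an acyl-CoA synthetase, with a log2 ratio of 0.45.

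The remaining lists were 10 tested lipoxygenases and P450 oxygenases outside the members (median 0.04), 7 genes of leukotriene conversion and peroxide reduction (0.02), 6 of degradation (0.07) and 4 of transport (-0.32). They held no called gene, where 10.4% of all tested genes were called in either direction. Cyp4f13 had the highest FPKM among the oxygenases, with 256.99 and 246.99 counts. Alox12 and Alox12b, lipoxygenases related to Alox15, had under 3 counts in either library, and Alox8 had 12.65 and 5.55. Gpx1, a glutathione peroxidase and in NT cells the gene of highest FPKM in its list, had 6001 and 5121 counts and a log2 ratio of -0.26. Ptgr1, which inactivates leukotriene B4 and prostaglandins, had 610 and 569 counts, and Abcc1, an exporter of leukotriene C4, had 871 and 727. Hpgd, which begins the breakdown of prostaglandins, had 5 counts in NT cells and was absent from the IL-4 table.

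**Figure D4:**
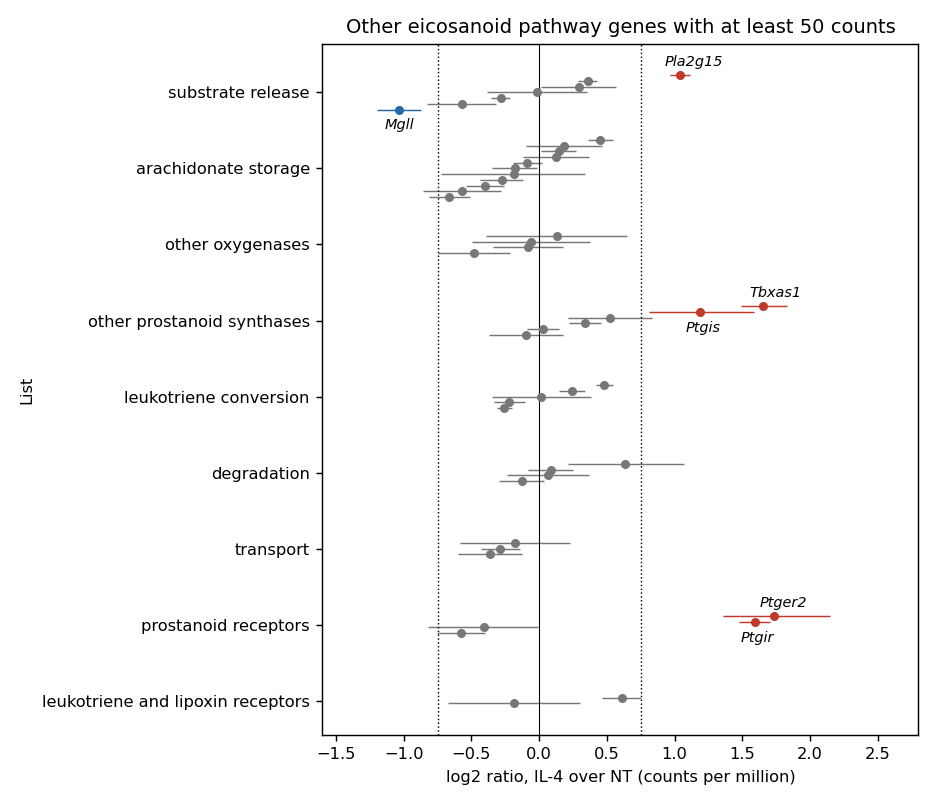
Log2 ratio of IL-4 over NT for the other pathway genes that reached 50 expected counts in either library, by list, with exact Clopper-Pearson 95% intervals of counting error (red, called higher; blue, called lower; grey, not called). Tbxas1 (1.66), Ptgis (1.19), Ptgir (1.59), Ptger2 (1.74) and Pla2g15 (1.04) lie above the upper dotted line at 0.75, and Mgll (-1.03) lies below the lower one.

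The libraries held 11035641 (NT) and 11250099 (IL-4) expected counts, and 3 counts corresponded to 0.272 and 0.267 CPM. All 8 macrophage markers were listed, summing to 17095 CPM in NT cells and 17408 CPM after IL-4, of which Csf1r was called higher (6236 and 11896 counts) and Cd14 lower (1219 and 591). Of 9 neutrophil markers, 6 were listed in neither library, and the list summed to 10.9 and 9.32 CPM. Markers of B cells summed to 9.61 and 8.62 CPM, those of T and NK cells to 3.29 and 2.68 CPM and those of mesothelial cells to 11.2 and 12.6 CPM. No gene of the neutrophil, B cell or T and NK cell lists was called, whereas of the 4 mesothelial markers Msln was called lower (12 and 2 counts) and Lrrn4 higher (32 and 68). Of 4 adipocyte markers, 3 were listed in neither library, and Adipoq, listed after IL-4 alone (139 counts), was called higher. The adherent cells carried macrophage markers far above those of the other lists. Intervals cover counting error only, and as the sources used here name no molecular identifiers reads cannot be taken as independent molecules.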

How the data were processed

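The data are 2 RNA-seq samples, NT and IL-4, grouped by their titles. The authors mapped reads to GRCm38/mm10 using Bowtie and then ran RSEM (versions not given in the sources used here). The deposited files hold expected counts (RSEM estimates, not scaled for depth), the authors' FPKM values and a transcript length per gene. A gene absent from a table was set to 0. Of 15623 gene numbers, 15587 were matched to a symbol and coordinates in a RefSeq table for GRCm38.

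Log2 ratios used counts scaled to the library totals with 0.5 count added. Expected counts were rounded for the test, which left out 30 genes at 0 in each library. The 15593 others were tested with an exact conditional binomial test (2 times the smaller tail) and BH adjustment over all of them, at the thresholds of the study. Clopper-Pearson 95% intervals were taken of the share of reads from IL-4, and exact Poisson intervals of FPKM. The length trend was a median over 500 genes of similar length with at least 200 reads. Motifs were searched in RefSeq promoters, and exons and 31-base words came from GENCODE M21. The procedure was run on simulated counts that held Poisson error alone, with changes set only in genes of at least 50 expected counts. That run therefore does not bear on variation between animals or on calls of scarce genes. The members, the 9 pathway lists and the 10 marker lists were chosen with earlier results of these data known. Genes were named by a rule: the members, the called genes of each pathway list with at least 50 counts (up to 4) or else its gene of highest FPKM, markers at the top of a list or at 0, and the 4 genes nearest to the member of largest ratio. Other genes were named after their values were seen. Alternatives were other scalings (edgeR 4.0.16, DESeq2 1.42.0), constants, filters, thresholds, the length trend and an edgeR exact test at assumed biological variation. Software was R 4.3.3 and Python 3.11.15 with scipy 1.17.1, numpy 2.4.6, matplotlib 3.10.9 and pandas 2.3.3.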

Additional observations from a re-analysis of the deposited data

How the results depend on the processing

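No paired analysis was possible because NT and IL-4 were sequenced once each, and leaving out a replicate was likewise impossible. The 2 members called higher and the 1 called lower kept their calls and directions in every alternative but one. The alternatives with other constants, FPKM, the read filter, other thresholds or the length trend kept the p-values of the main test. In those, only the ratio, the adjustment or the cutoff changed. In the edgeR exact test at a biological coefficient of variation set to 0.4, 0 members and 0 other pathway genes were called in either direction, although 2 members and 2 other pathway genes had an unadjusted p of at most 0.05. That setting left 65 genes higher and 8 lower over all genes, and with 0.2 the numbers were 390 and 423. Of the comparisons of members under alternatives, 137 left the call as it was, 3 became weaker (all at 0.4) and none was reversed. The ratio of Ptgs2 passed 0.75 with the length trend subtracted (0.81), without a call at the p-value of the main test. The log2 ratio ran from 0.84 to 2.72 for Alox15, from 1.93 to 2.09 for Ptgs1 and from -1.22 to -1.16 for Hpgds. Over all genes, FPKM with 1 added gave 391 higher and 399 lower, and a log2 ratio of at least 1 with a BH value of at most 0.05 gave 408 and 476, against 635 and 979 in the main test. The other pathway genes called higher numbered 9 in place of 7 at a fold change over 1.5 and 6 with FPKM plus 1. Those called lower numbered 2 in place of 1 at a fold change over 1.5 (with Fads1) and with p as the sum of outcomes no likelier than the one seen (with Hpgd). The latter form of p, and all alternatives on the other pathway genes, were chosen after seeing the data. Cysltr2 lost its call with FPKM plus 1 (0.75 after rounding). The cause of these changes was not tested. Depth limits Alox5, Ltc4s, Ptgs2 and Ptges, each with under 50 counts in either library, for which changes as large as the threshold lay within counting error, and it leaves the size of the Alox15 rise wide.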
